A study of Bos taurus with 6 samples.

Results

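The lysophospholipid acyltransferases examined here are 10 genes, LPCAT1, LPCAT2, LPCAT3, LPCAT4, MBOAT2, MBOAT7, AGPAT1, AGPAT2, AGPAT3 and AGPAT5, which were chosen by gene symbol from the 36075 genes of the deposited table. Each symbol was found on 1 row. Their transcripts were measured in bovine (Bos taurus) blastocysts produced in vitro, in 3 control libraries and 3 MT-treated libraries. In the MT-treated group, melatonin (MT) was present at 1e-07 mol/L while the oocytes matured for 22 h, and the control oocytes were matured without it. All oocytes were then fertilized and the embryos cultured in the same way until the blastocyst stage. Per the study's methods, 3 blastocysts were pooled for a library and each group came from 3 in vitro production runs, and the oocytes came from slaughterhouse ovaries. Inner cell mass and trophectoderm were therefore measured together.

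A membrane phospholipid carries a pair of fatty acids and a head group. A phospholipase can remove 1 fatty acid and leave a lysophospholipid, and a lysophospholipid acyltransferase puts a new fatty acid back from an acyl-CoA, a cycle that sets which fatty acids a membrane holds. The LPCAT enzymes act mainly on lysophosphatidylcholine (LPC), MBOAT2 on lysophosphatidylethanolamine (LPE) and LPC, and MBOAT7 on lysophosphatidylinositol (LPI). The AGPAT enzymes acylate lysophosphatidic acid (LPA) to phosphatidic acid, from which other glycerophospholipids and triglycerides are made.

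Values are TPM, a unit that corrects the reads of each gene for its length and for the library's total, so that levels of different genes can be set side by side. The deposited values did not share a common total. They summed to 936783 to 937698 TPM in control and 912686 to 913422 TPM in MT-treated libraries. Fold changes were fitted with limma on log2(TPM + 1) over the 11953 genes that reached 1 TPM in 3 libraries or more. The control libraries had 8854 to 8953 genes above 0 TPM and the MT-treated libraries 14372 to 14408, and 95.7% of the tested genes had an adjusted p-value under 0.05, 61.6% higher and 34.1% lower in the MT-treated libraries. Centring each library on the median of the 5988 genes with at least 1 TPM in all libraries removes a shift of -0.48 between the groups on the log2 scale, so the direction of a small change depends on the scaling. A TPM of 0 can also be a failed measurement, since a gene such as POLR3K, a subunit of RNA polymerase III named after its values were seen, is listed at 0 in every control library and at 293 to 297 TPM in the MT-treated libraries. How TPM was made is not given, so standard errors and p-values take the deposited values as they are, with their close replicates and with 33.8% of the tested genes listed at 0 in all control libraries. Among markers of the blastocyst, the 7 trophectoderm genes summed to between 11498 and 11840.5 TPM in control and between 10575 and 10931 TPM in MT-treated libraries. Most of this sum was KRT8 (8541 to 8828 and 6756 to 7010 TPM) and KRT18 (2726 to 2791 and 3586 to 3694 TPM), and below it GATA2 had 6.75 to 7.65 TPM in control and 47.8 to 50.4 TPM in MT-treated libraries and IFNT 184 to 188 and 112 to 114 TPM. CDX2 and NANOG, which define trophectoderm and inner cell mass, were listed at 0 in every control library. The 5 inner cell mass genes summed to between 246 and 250.2 TPM in control and between 232 and 237 TPM in MT-treated libraries. Most of that was POU5F1 (188 to 191 and 191 to 194 TPM). SALL4 had 55.0 to 57.9 and 26.26 to 27.03 TPM and LIN28B 1.02 to 1.32 and 0.34 to 0.49 TPM. SOX2 had 0 to 0.02 and 5.88 to 6.95 TPM. The 5 hypoblast genes summed to between 204 and 208 TPM and between 514 and 517 TPM. Most of that was FN1 (204 to 207 and 457 to 463 TPM). GATA6 had 0.2 to 0.44 and 30.8 to 33.1 TPM and PDGFRA 0 and 22.5 to 24.2 TPM. SOX17 had 0 and 0.14 to 0.2 TPM, and GATA4 was at 0 in all libraries. The 9 cumulus and granulosa cell genes summed to at most 19.3 TPM in any library, with PTX3, INHA, AMHR2, HAS2 and FOXL2 at 0 in all, and the 7 oocyte genes to at most 0.95 TPM. Most of the cumulus and granulosa sum was FSHR, at 17.2 to 19.2 TPM in control and 15.0 to 17.1 TPM in MT-treated libraries. The part of cell type make-up in the differences given here was not tested.

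Of the 10 acyltransferase genes, 9 reached the level required for testing. LPCAT2, LPCAT4 and MBOAT2 were higher in MT-treated blastocysts, and LPCAT1, LPCAT3, MBOAT7, AGPAT2, AGPAT3 and AGPAT5 were lower, each with an adjusted p-value under 0.05 by limma. The 3 higher genes made up 33.3% of the 9 and the 6 lower genes 66.7%, beside 61.6% and 34.1% of all tested genes. The median log2 fold change of the 9 was -0.51 and that of all tested genes 1.12. The direction over all genes turns when genes listed at 0 are left out. Of the 6925 tested genes above 0 in all libraries, with a median of -0.19, 40.6% were higher and 52.4% lower, and of the 8 acyltransferases among them 2 were higher and 6 lower (25% and 75%). MBOAT2 passed the filter only through the MT-treated libraries and AGPAT2 only through the control libraries, so both had to differ between the groups. When the log2 fold change also had to reach 1 (2-fold), 2 of the acyltransferases were higher and 4 lower, whereas 51.0% and 19.6% of the tested genes met this rule. The values of the groups did not overlap for any of the 10 genes, as for 96.1% of the tested genes. An exact two-sided permutation test of 3 against 3 libraries gave p = 0.1 for each of the 10, the smallest value it allows. In whole blastocysts, fewer cells of a type and less RNA per cell cannot be told apart.

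**Figure D1:**
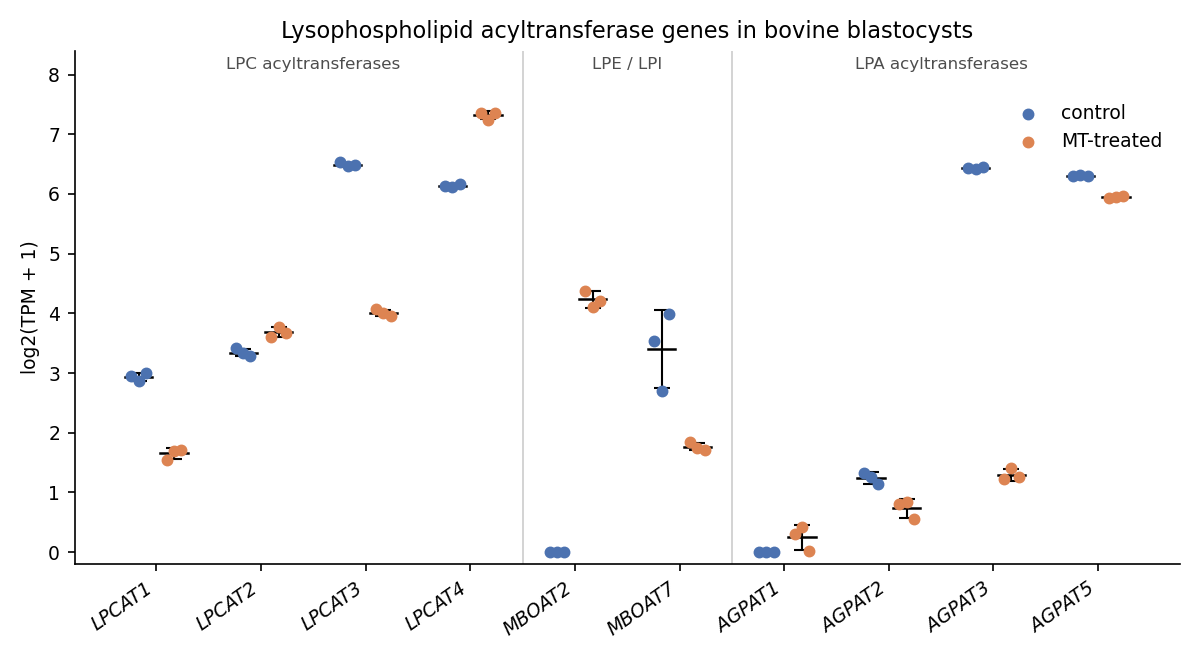
Level of each acyltransferase gene as log2(TPM + 1), with 1 point for each of the 3 control (blue) and 3 MT-treated (orange) libraries, the mean as a line and the SD as a bar (not drawn where a group is listed at 0). AGPAT3 and LPCAT3 fall from among the highest control levels, LPCAT4 is the highest MT-treated level, and MBOAT7 has the widest spread, in its control libraries.

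LPCAT3 (ENSBTAG00000013127), an enzyme of the endoplasmic reticulum that places polyunsaturated fatty acids into phosphatidylcholine, was the most abundant of the 10 genes in control blastocysts. Its level was 91.3, 87.5 and 88.4 TPM in the controls and 15.7, 15.0 and 14.6 TPM after MT. The 6 values formed 2 tight sets far apart. The mean level was 5.90-fold lower after MT, or -2.48 ± 0.04 (SE) as a log2 fold change (adjusted p = 5.39e-09 by limma with Benjamini-Hochberg adjustment). A larger change in either direction was seen for 41.8% of the tested genes. In control blastocysts 1644 genes had a higher mean TPM than LPCAT3, and in MT-treated blastocysts 5929. More genes were detected after MT. Of the genes detected in each group, 83.3% had a lower mean than LPCAT3 in control and 61.4% in MT-treated blastocysts. In the RefSeq annotation of another assembly (ARS-UCD2.0) the gene overlaps EMG1, a ribosome biogenesis factor, which had 69.2 ± 2.31 TPM in control and 54.8 ± 1.39 TPM in MT-treated libraries (SD, n = 3 each). Whether reads were counted by strand is not stated in the sources used here, and the part of shared reads in the level of LPCAT3 was not tested.

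LPCAT4 (ENSBTAG00000020040), which acylates both LPC and LPE, went the other way. The control libraries held 69.2, 68.1 and 70.6 TPM and the MT-treated libraries 163, 151 and 164 TPM. Each MT-treated value was more than the highest control value by a margin far wider than the spread within either group. The mean was 2.29-fold higher, or 1.19 ± 0.04 (SE) as a log2 fold change (adjusted p = 2.05e-07 by limma). Of the tested genes, 66.9% had a larger change in either direction. From the fourth place among the 10 genes in control, LPCAT4 became the most abundant in MT-treated blastocysts, where 831 genes had a higher mean TPM, against 2054 in control. Of the genes detected in each group, 79.1% had a lower mean than LPCAT4 in control and 94.6% in MT-treated blastocysts.

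LPCAT1 and LPCAT2 were expressed at lower levels. LPCAT1 (ENSBTAG00000000944), known for making the saturated phosphatidylcholine of lung surfactant, had 6.71, 6.29 and 6.99 TPM in control and 1.92, 2.23 and 2.29 TPM in MT-treated libraries. It was 3.10-fold lower by its means (log2 fold change -1.29 ± 0.06 SE, adjusted p = 1.82e-06 by limma), and 64.3% of the tested genes had a larger change. LPCAT2 (ENSBTAG00000019272), which also acetylates lyso-PAF to platelet-activating factor, had 9.64, 9.10 and 8.74 TPM in control and 11.2, 12.6 and 11.8 TPM in MT-treated libraries. Its gap between the groups was narrow, and its log2 fold change of 0.34 ± 0.06 (SE, adjusted p = 0.00116 by limma) turned to -1.45 after quantile normalization, which gives all libraries the same distribution, so no direction is given for LPCAT2 across scalings.

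Summed over the 4 LPCAT genes, the level was 174 ± 2.97 TPM in control and 188 ± 6.64 TPM in MT-treated blastocysts (SD, n = 3 each), a ratio of 1.08 (0.11 on the log2 scale), which is smaller than the shift of -0.48 that median centring removes. The make-up of that sum differed far more than its size. LPCAT3 held 51.1% ± 0.513 of it in control and 8.03% ± 0.398 in MT-treated blastocysts, while LPCAT4 held 39.8% ± 0.632 and 84.5% ± 0.912 (SD, n = 3 each). The ratio of LPCAT4 to LPCAT3, which was chosen after the values were seen and is left as it is by any constant factor on the TPM of a library, was 0.758, 0.779 and 0.799 in the controls and 10.3, 10.05 and 11.2 after MT. LPCAT3 was thus above LPCAT4 in every control library and below it in every MT-treated library.

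MBOAT2 and MBOAT7 belong with LPCAT3 to the membrane-bound O-acyltransferase family. MBOAT2 (ENSBTAG00000008160), which favours oleic acid as the fatty acid it transfers, was listed at 0 in every control library, as were 33.8% of the tested genes, and reached 19.8, 16.3 and 17.5 TPM after MT. Since the control group of MBOAT2 is listed at 0, no fold change is given for it. Its adjusted p-value by limma is given only as under 0.05. MBOAT7 (ENSBTAG00000015908), which places arachidonic acid into phosphatidylinositol, had 10.6, 5.46 and 14.9 TPM in the controls and 2.59, 2.35 and 2.29 TPM after MT. Its control values differed among themselves more than those of any other tested member. Their coefficient of variation was 45.7%, against a median of 4.69% over the 1440 tested genes with a control mean of 5 to 20 TPM, and 1.32% of those genes had a larger one. MBOAT7 was still lower in all MT-treated libraries, with a log2 fold change of -1.63 ± 0.32 (SE, adjusted p = 0.00266 by limma). Of the tested genes, 57.0% had a larger change in either direction. Without control replicate 2, the lowest of the control values, the log2 fold change was -1.99, and without control replicate 3 it was -1.34.

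Among the LPA acyltransferases, AGPAT3 (ENSBTAG00000020456), which has been linked to docosahexaenoic acid in phospholipids, had the largest change of the tested members above 0 in both groups. Its control libraries had 85.9, 84.4 and 86.4 TPM and its MT-treated libraries 1.33, 1.64 and 1.38 TPM. AGPAT3 was the second most abundant of the 10 genes in control and the eighth in MT-treated blastocysts. The mean was 59.0-fold lower, with a log2 fold change of -5.14 ± 0.05 (SE, adjusted p = 1.55e-09 by limma), and 5.20% of the tested genes had a larger change in either direction. Its MT-treated values were under 2 TPM, near the lower limit of the measurement, so the size of this fold change is uncertain.

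AGPAT5 (ENSBTAG00000004922), an LPA acyltransferase of mitochondria, had 77.7, 78.6 and 78.2 TPM in control and 59.8, 60.9 and 61.4 TPM in MT-treated libraries. The replicates were closer to each other than for any other of the genes above 0 in both groups, with a coefficient of variation of 0.577% in control and 1.34% in MT-treated libraries. The log2 fold change of -0.36 ± 0.02 (SE, adjusted p = 3.65e-06 by limma) became 0.12 after median centring (adjusted p = 0.00119 by limma), so the direction of AGPAT5 depends on the scaling. Genes with a higher mean TPM numbered 1841 in the controls and 1924 after MT, where more genes were detected. Of the genes detected in each group, 81.2% had a lower mean than AGPAT5 in control and 87.5% in MT-treated blastocysts.

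AGPAT2 and AGPAT1, the enzymes of the endoplasmic reticulum best known for LPA acylation, were near the lower limit of the measurement. AGPAT2 (ENSBTAG00000025161), whose loss causes lipodystrophy in humans, had 1.52, 1.39 and 1.2 TPM in control and 0.75, 0.78 and 0.47 TPM in MT-treated libraries. Its mean was 2.06-fold lower, and the log2 fold change was -0.51 with a pseudocount of 1 and -0.96 with 0.1. After median centring it was -0.03 and was no longer called (adjusted p = 0.752 by limma). AGPAT1 (ENSBTAG00000004442) was at 0 in all controls and at 0.23, 0.34 and 0.01 TPM after MT. AGPAT1 did not reach the level for testing, and in a fit of all detected genes it was not called (adjusted p = 0.0746 by limma). AGPAT1 overlaps EGFL8 in ARS-UCD2.0, which had 9.01, 9.98 and 9.81 TPM in control and 0, 0 and 0.32 TPM in MT-treated libraries.

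The 4 AGPAT genes summed to 165.1 ± 0.685 TPM in control and 63.0 ± 0.81 TPM in MT-treated blastocysts (SD, n = 3 each), a ratio of 0.382. AGPAT4, a further LPA acyltransferase, was not among the chosen genes and is not in this sum. AGPAT4 had 94.8 ± 0.971 TPM in control, above AGPAT3 and AGPAT5. In MT-treated blastocysts it had 38.3 ± 1.995 TPM, below AGPAT5 (SD, n = 3 each). The shares that follow hold only for the sum of the 4 genes and would be lower with AGPAT4 in it. AGPAT3 and AGPAT5 shared the sum of the 4 genes almost evenly in control, with 51.8% ± 0.412 and 47.3% ± 0.399. In MT-treated blastocysts AGPAT5 held 96.3% ± 0.698 of that sum. The ratio of AGPAT5 to AGPAT3, also chosen after the values were seen, was 0.905, 0.931 and 0.905 in the controls and 44.9, 37.1 and 44.5 after MT. The ratios after MT divide by AGPAT3 values under 2 TPM, so their size is uncertain.

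**Figure D2:**
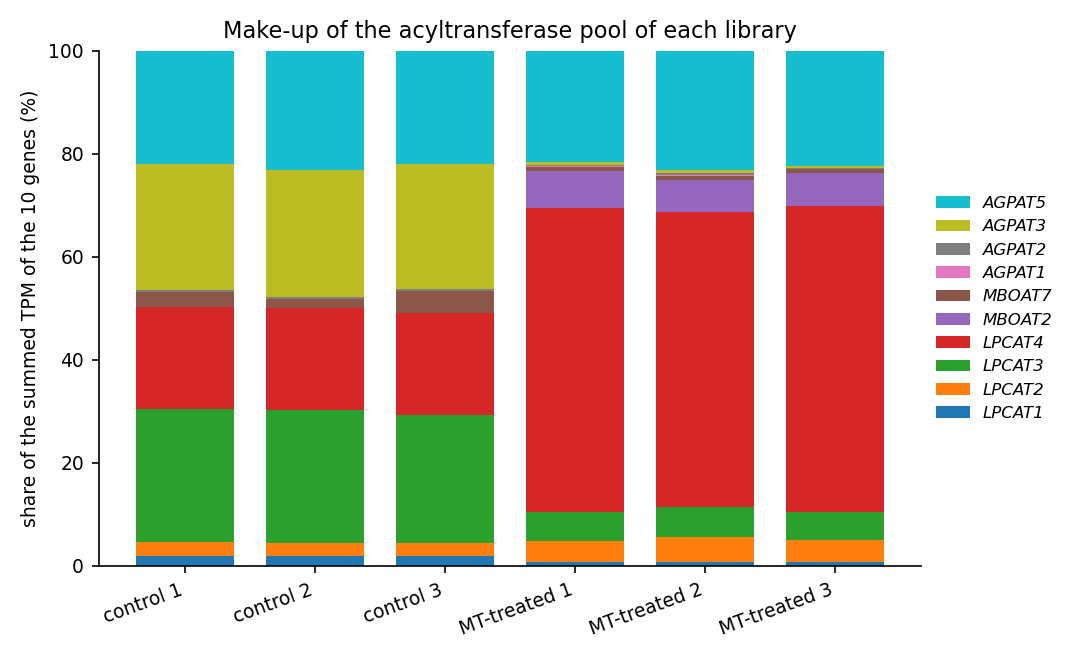
Share (%) of each acyltransferase gene in the summed TPM of the 10 genes, with 1 stacked bar for each library. LPCAT3 (green) holds between 24.9% and 25.9% and AGPAT3 (olive) between 24.3% and 24.8% of each control bar, and LPCAT4 (red) holds between 57.3% and 59.5% of each MT-treated bar.

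Over all 10 genes the sum was 350 ± 7.65 TPM in control and 271 ± 7.5 TPM in MT-treated blastocysts (SD, n = 3 each), a log2 ratio of -0.36, which is also smaller than the shift that median centring removes, so no direction is given for the sum. In control, LPCAT3, AGPAT3, AGPAT5 and LPCAT4 followed each other in this order, with 25.5%, 24.5%, 22.4% and 19.8% of the sum, and the ranges of neighbours in this order did not overlap in TPM. MBOAT7 and LPCAT2 came next, and their ranges overlapped. In MT-treated blastocysts the order was LPCAT4 with 58.6%, AGPAT5 with 22.4%, MBOAT2 with 6.57%, LPCAT3 with 5.57% and LPCAT2 with 4.38%, each apart from the next, and MBOAT7 and LPCAT1 overlapped below them. AGPAT5 kept the same share of the sum to within its SD of 0.596 percentage points in control and 0.765 in MT-treated blastocysts.

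The scaling of the libraries decided the direction for LPCAT2 and AGPAT5 and the call for AGPAT2. Beside 70.4% higher and 25.4% lower of all tested genes, 4 acyltransferases were higher and 4 lower after median centring, and beside 46.4% and 44.4% of all tested genes, 2 were higher and 7 lower after quantile normalization. For LPCAT1, LPCAT3, LPCAT4, MBOAT7 and AGPAT3 the direction and the call were the same with TPM as deposited and under both scalings. MBOAT2 passed the filter only through the MT-treated libraries, so it had to be higher and is left out here. After median centring and quantile normalization, LPCAT3 had log2 fold changes of -2.005 and -3.03 under these scalings, in that order, LPCAT4 of 1.67 and 1.45, and AGPAT3 of -4.67 and -5.66.

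**Figure D3:**
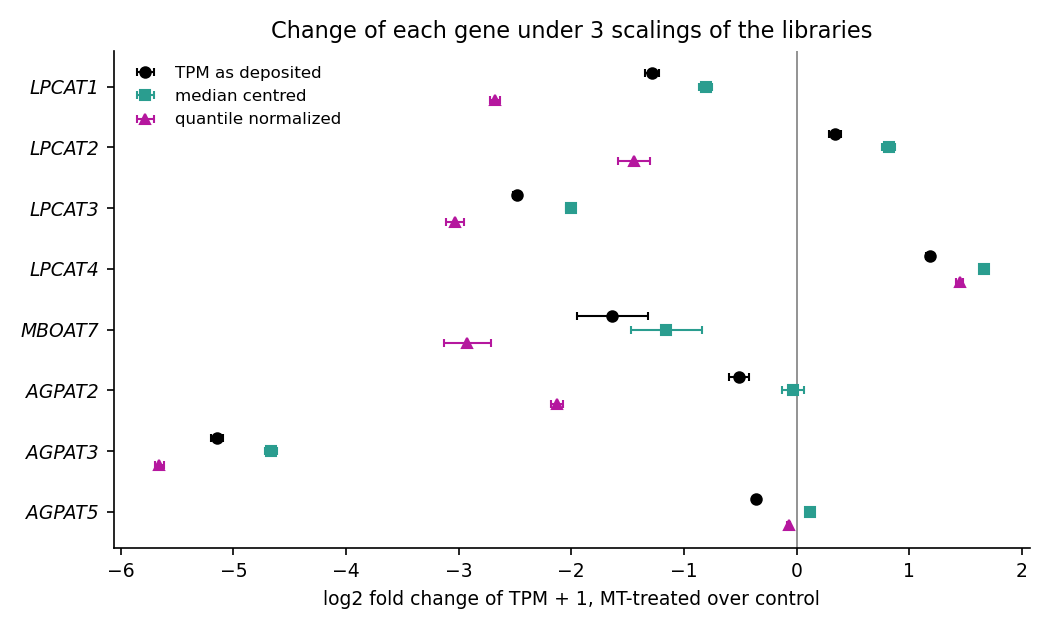
Log2 fold change of TPM + 1 (MT-treated over control) with its standard error for 8 tested genes, with TPM as deposited (black circles), median centred (green squares) and quantile normalized (magenta triangles); MBOAT2, listed at 0 in control, is not drawn. Only LPCAT2 and AGPAT5 have symbols on both sides of 0.

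The other steps of phospholipid synthesis and turnover were examined with 5 lists of genes, to be read beside the 61.6% higher and 34.1% lower genes and the median log2 fold change of 1.12 over all tested genes. Of 8 tested genes among other acyltransferases of glycerolipid synthesis, 3 were higher and 5 lower (37.5% and 62.5%), with a median log2 fold change of -0.76. AGPAT4, a further LPA acyltransferase, fell from 94.8 ± 0.971 to 38.3 ± 1.995 TPM, and GNPAT, which starts ether lipid synthesis in peroxisomes, from 19.0 ± 1.42 to 8.68 ± 0.432 TPM (SD, n = 3 each). LPGAT1, which acylates lysophosphatidylglycerol, was at 0 in all controls and at 25.3, 24.9 and 26.9 TPM after MT. GPAM, the mitochondrial glycerol-3-phosphate acyltransferase that supplies LPA, was also listed at 0 in control and had 17.7, 12.7 and 14.9 TPM after MT.

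Among phospholipases A and lysophospholipases, which make or remove the substrates of the acyltransferases, 7 of 17 tested genes were higher and 8 lower (41.2% and 47.1%, beside 61.6% and 34.1% of all tested genes), with a median log2 fold change of 0.00076. Of the 17, 5 were listed at 0 in all control libraries and 1 in all MT-treated libraries, so these had to differ. Of the 11 above 0 in all libraries, 2 were higher and 7 lower. ABHD6, a lipase of monoacylglycerol and lysophospholipids, fell from 34.3 ± 0.765 to 0.393 ± 0.0681 TPM (SD, n = 3 each). PNPLA7, a lysophospholipase, had 10.2, 10.2 and 10.4 TPM in control and was listed at 0 in each MT-treated library. PLB1, a phospholipase B, and ABHD3, a phospholipase of phosphatidylcholine, were both listed at 0 in control and reached 29.1, 33.1 and 28.5 TPM (PLB1) and 19.0, 19.0 and 17.0 TPM (ABHD3) after MT.

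Of 19 tested genes for head group and backbone steps, 13 were higher and 6 lower (68.4% and 31.6%, close to the 61.6% and 34.1% of all tested genes), with a median log2 fold change of 1.99, and 7 of the 13 were listed at 0 in all control libraries. CDIPT, which makes phosphatidylinositol, had 0.07, 0.10 and 0.27 TPM in control and 67.0, 65.3 and 66.8 TPM in MT-treated libraries. CDS1, which makes the CDP-diacylglycerol that CDIPT uses, had 0, 0.13 and 0.06 TPM in control and 34.6, 36.9 and 35.8 TPM in MT-treated libraries. CHKB, a choline kinase, fell from 49.6 ± 1.96 to 9.69 ± 0.362 TPM, and PTPMT1, of mitochondrial phosphatidylglycerol synthesis, from 95.2 ± 4.24 to 46.6 ± 2.88 TPM (SD, n = 3 each).

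In the list of long-chain acyl-CoA synthetases and acyl-CoA binding, 6 of 11 tested genes were higher and 4 lower (54.5% and 36.4%), with a median log2 fold change of 1.03, close to the 61.6%, 34.1% and 1.12 of all tested genes. Of the 11, 4 were listed at 0 in all control libraries and 1 in all MT-treated libraries, so these had to differ. ACSL4, which activates arachidonic acid, fell to 28.0 ± 2.25 TPM from 62.3 ± 2.14 TPM in control (SD, n = 3 each), and SLC27A3, a fatty acid transport protein, from 10.9 ± 0.281 TPM to 0 in each MT-treated library. ACBD5 and ACBD6, which bind acyl-CoA, were listed at 0 in control and reached 13.9, 13.1 and 14.4 TPM (ACBD5) and 30.8, 28.9 and 28.9 TPM (ACBD6) after MT.

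The liver X receptors are nuclear receptors known to act on LPCAT3. In their list of 8 tested genes, 4 were higher and 4 lower (50% each, beside 61.6% and 34.1% of all tested genes), with a median log2 fold change of 0.20. Of the 8, 2 were listed at 0 in all control libraries, so these had to differ. NCOA2 and NCOA1, coactivators of nuclear receptors, fell from 147 ± 5.95 to 14.6 ± 0.65 TPM and from 79.9 ± 3.64 to 20.9 ± 1.12 TPM (SD, n = 3 each). NCOA3, a further coactivator, had 0, 0.01 and 0 TPM in control and 22.5, 24.2 and 25.3 TPM in MT-treated libraries. RXRG, a receptor partner, was listed at 0 in control and had 14.8, 16.7 and 21.0 TPM after MT. Other partners, named after their values were seen, were RXRA and RXRB. RXRA was at 0 in control and at 16.4, 18.5 and 15.9 TPM after MT. RXRB had 34.8 ± 0.78 TPM in control and 29.2 ± 0.355 TPM in MT-treated libraries (SD, n = 3 each). Of genes named after their values were seen, the receptor NR1H3 and the target genes ABCA1 and ABCG1 were listed at 0 in all 6 libraries, and the target gene MYLIP was at 0 in all controls and at 0.65, 0.42 and 0.42 TPM after MT. NR1H2, the other receptor, had 25.8 ± 0.62 TPM in control and 41.2 ± 1.16 TPM in MT-treated blastocysts (SD, n = 3 each, adjusted p = 2.10e-06 by limma).

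**Figure D4:**
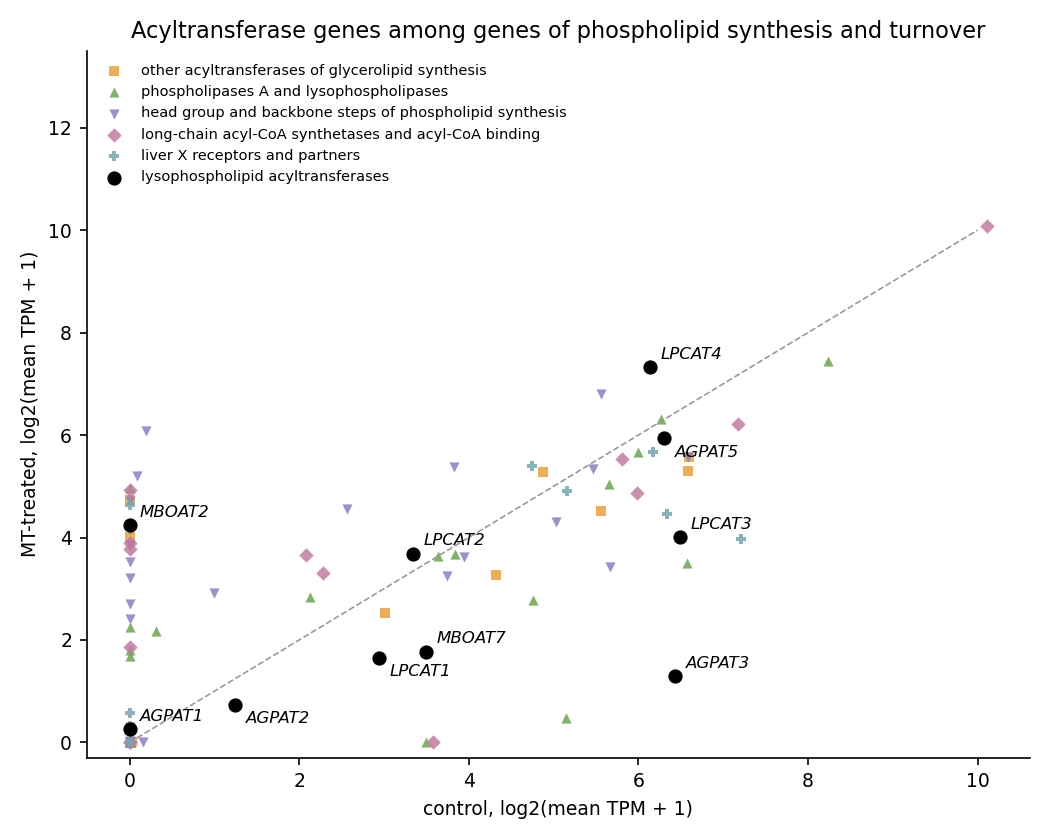
Mean level in MT-treated (vertical) against control libraries (horizontal), as log2(mean TPM + 1) over 3 libraries each, for the acyltransferases (black, named) and the 5 lists of genes of phospholipid metabolism (coloured symbols); the dashed line marks equal levels. AGPAT3 and LPCAT3 lie well below the line, LPCAT4 above it, and MBOAT2 stands in the column of genes at 0 in control.

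The 3 tested genes nearest to LPCAT3, by the Euclidean distance of log2(TPM + 1) over the 6 libraries, were FBXO8, RSBN1L and PAN3, at distances of 0.232, 0.241 and 0.295. FBXO8 had 82.2 ± 2.16 TPM in control and 15.7 ± 0.423 TPM in MT-treated blastocysts, RSBN1L 85.0 ± 3.33 and 16.2 ± 0.33 TPM, and PAN3 83.8 ± 6.65 and 14.0 ± 0.498 TPM (SD, n = 3 each). These genes were chosen by that distance, so they had to be like LPCAT3 in both the level and the difference between the groups.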

How the data were processed

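The paper states that reads were filtered with fastp and checked with FastQC 0.11.9, aligned with STAR 2.7.9a to ARS-UCD1.3 (the sample labels name ARS-UCD1.2) and counted per gene with featureCounts (Subread 1.6.3), and it names Smart-seq2 where the labels name a TruSeq kit. The authors deposited TPM rounded to 2 decimals, and how counts became TPM is not given in the sources used here. TPM keeps no counts, so counting error could not be estimated. The paper states that the sequencing depth of each replicate is given in its supplement, which was not used here. The authors' DESeq2 test could not be repeated on these values.

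All 6 columns were matched to samples by their labels. Genes that reached 1 TPM in 3 libraries or more were fitted as log2(TPM + 1) with limma 3.58.1 (R 4.3.3; lmFit, eBayes with trend) on the whole table, and p-values were adjusted by Benjamini-Hochberg at 0.05. This scale understates changes of genes with low levels. Figures and shares were made with Python 3.11.15 and matplotlib 3.10.9. The fit was tested on simulated data in which 200 of 11953 genes changed. It recovered 80% of the smaller and 94% of the larger changes, with 4 false calls. Far more genes differ in the deposited values, so the simulation cannot show how the fit behaves on them. The 10 genes and the lists were chosen with earlier results of these data known. Named genes were all 10, the 2 highest and 2 lowest called changes of each list with groups that do not overlap, and the 3 genes nearest to LPCAT3. RefSeq genes of ARS-UCD2.0 served for overlaps of genes (10 of 10 symbols matched, 4 with an overlapping gene), and no coordinates are given, since the assemblies differ. The fit was repeated with quantile normalization, median centring, a pseudocount of 0.1, a minimum of 5 TPM or none, eBayes without trend, a replicate block and without each library, and, as a choice made after seeing the data, on the tested genes above 0 in all libraries.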

Additional observations from a re-analysis of the deposited data

How the results depend on the processing

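The number of acyltransferase genes called was 3 higher and 6 lower under a pseudocount of 0.1, no filter and eBayes without trend, and with each library left out in turn. It was 4 and 4 after median centring, 2 and 7 after quantile normalization, 3 and 5 with a minimum TPM of 5, and 2 and 6 among genes above 0 in all libraries. LPCAT2 reversed to a log2 fold change of -1.45 after quantile normalization and AGPAT5 to 0.12 after median centring, and AGPAT2 was no longer called after median centring. Among phospholipases the count of higher genes was 3 with a minimum TPM of 5, 3 after quantile normalization and 11 after median centring. Median centring left 3 lower genes among head group and backbone steps and 2 among liver X receptors and partners. Quantile normalization gave 3 higher and 7 lower genes among acyl-CoA synthetases and binding proteins. Median centring moves all genes of a library by 1 constant, which raises MT-treated values relative to control, and the cause of the changes under quantile normalization was not tested. Among genes above 0 in all libraries, which leaves out every gene listed at 0 in control, 2814 genes were higher and 3626 lower over all genes, and the higher genes numbered 1 among other acyltransferases, 2 among phospholipases, 5 among head group and backbone steps, 2 among acyl-CoA synthetases and binding proteins and 1 among liver X receptors and partners. Same-numbered libraries of both groups did not deviate together (correlations across genes of -0.0115, -0.0007 and 0.0588). The paper states that the oocytes of a run were pooled and divided at random among the treatments. Whether replicate numbers stand for runs is not stated in the sources used here. With the replicate block 3 acyltransferase genes were higher and 6 lower, and 7379 of all tested genes were higher and 4082 lower. The read counts behind a value are not given by TPM, which limits what can be said of AGPAT1 and AGPAT2, both under 2 TPM. The same holds for AGPAT3 in the MT-treated libraries, where it was under 2 TPM.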
